A study of Mus musculus with 12 samples.

Results

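L4/5 Rorb neurons are excitatory neurons of cortical layer 4 and upper layer 5 whose nuclei carry transcripts of Rorb, a nuclear receptor that marks these layers. Layer 4 is the main cortical target of sensory axons from the thalamus, and its Rorb neurons send their output mostly to other cells of the cortex, which is why they are grouped with the intratelencephalic (IT) neurons. Rorb itself is a transcription factor needed for the clustering of these neurons around thalamic input in sensory cortex. Here they were taken as nuclei with at least 4 UMIs (unique molecular identifiers, 1 per captured transcript) of Rorb, at least 1 of Slc17a7 (a vesicular glutamate transporter), none of Gad1 and Gad2 (the enzymes of GABA synthesis), and at most 1 each of Foxp2 (layer 6) and Tshz2 (layer 5). This gave 1910 nuclei of the 71914 kept in the whole dataset, which is 2.66% of all kept nuclei and 8.20% of the 23296 nuclei that met the same Slc17a7 and Gad criteria, called excitatory nuclei below.

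The nuclei came from 12 mice at postnatal day 21, 6 WT and 6 Het, with 3 males and 3 females in each genotype. The tissue was cortex according to the labels. The study's methods name cortical tissue in the passages on collection and prefrontal cortex in the passage on nuclei. In prefrontal areas of the mouse, layer 4 is thin or absent. All animals belonged to the MYT1L S710fsX line, kept on C57BL/6J, in which Het mice carry a frameshift in 1 copy of Myt1l, a zinc finger transcription factor of neurons. Animals of both genotypes had received AAV9 encoding a transposase and a tdTomato reporter as pups, according to the study's methods, so no uninfected cortex was available for comparison. The 12 animals came from 4 litters and were processed on the same plates, and the labels do not tie an animal to a litter. The comparison of Het with WT asked which genes and what share of nuclei differed with the frameshift in 1 copy of Myt1l.

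Total UMIs per animal ranged from 23429386 to 59958572, and no barcode was shared between libraries. The 1910 nuclei held a median of 7401.5 UMIs, against 6137 in excitatory nuclei. Each animal gave 87 to 293 of them, with 639697 to 2151869 UMIs once summed. Of the 1910 nuclei, 619 had at most 6000 UMIs, and 341 fell within all the limits on UMIs and genes that the study used for nuclei. Log-transformed CPM (the UMIs of a gene after the summed nuclei of each animal are scaled to the same total) correlated between animals of 1 genotype with r of 0.955 to 0.986 and between genotypes with r of 0.964 to 0.982, across 2659 genes, which are not independent replicates. Myt1l was at 849 to 1105 normalised CPM in WT (median 878) and 844 to 1036 in Het (median 978). The 2 ranges overlapped almost entirely, and the log2 fold change of Het over WT was 0.05 (SE 0.07, edgeR quasi-likelihood test, adjusted p = 0.946). A frameshift need not lower the transcript level, so this count does not check the genotype.

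Which genes the gated nuclei carried was examined first, to see whether they looked like layer 4/5 neurons. Rorb chose the nuclei, so its level is only a description: 1016 CPM in L4/5 Rorb nuclei and 44.7 in the other excitatory nuclei. The 8 further markers listed for L4/5 IT neurons were all higher in L4/5 Rorb nuclei than in the other excitatory nuclei, with a summed 1312 CPM against 536. This sum was higher in 12 of 12 animals. The list was chosen with earlier results of these data known, so its direction is a description and no independent support. Cpne9, a calcium-dependent membrane-binding protein, stood at 99.7 CPM against 31.0. Kcnh5, a voltage-gated potassium channel, stood at 585 CPM against 162, and Whrn, a scaffold protein first known from sensory hair cells, at 45.5 against 11.6. Rspo1, Scnn1a, Tmem215 and Endou followed the same direction, but none exceeded 2.12 CPM. Apart from the gate gene Rorb, the cell type label therefore rests mainly on Cpne9, Kcnh5, Il1rapl2 and Whrn. Il1rapl2 was at 575 CPM against 329, higher in 11 of 12 animals, and ranged from 217 to 1192 CPM between animals. In nuclei gated for L2/3 IT, Cpne9 was nearly as high, at 84.0 CPM, while Kcnh5, Il1rapl2 and Whrn were at 222, 75.9 and 5.36. A UMI of Kcnh5 was found in 82.6% of L4/5 Rorb nuclei and in 4.93% of 1824 oligodendrocyte nuclei, cells that should lack it, and one of Cpne9 in 44.0% and 1.43%. The oligodendrocyte nuclei were shallower, with a median of 2657.5 UMIs.

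Markers of the neighbouring layers were examined next. The other excitatory nuclei include those that the Foxp2 and Tshz2 limits left out. Low levels of markers that go with Foxp2 or Tshz2 are therefore partly set by the gate. Markers of L6 CT (corticothalamic) neurons other than Foxp2 summed to 368 CPM in L4/5 Rorb nuclei, 1575 in other excitatory nuclei and 6044 in nuclei gated for L6 CT. Hs3st4, a heparan sulfate sulfotransferase, made up most of the remainder with 329 CPM. L5 ET (extratelencephalic) markers summed to 30.0 CPM against 127 in the other excitatory nuclei, and were lower in 12 of 12 animals. L5 IT markers summed to 126 CPM against 158, also lower in 12 of 12 animals. Of the 6 L5 IT markers, Etv1 (30.2 CPM against 43.3), Parm1 (10.2 against 22.9) and Tox2 (3.67 against 12.3) were lower. The other 3 were higher, Deptor at 35.3 against 34.4, Sulf2 at 45.61 against 44.99 and Batf3 at 0.496 against 0.325. Each of these 3 was higher in only 6 or 7 of 12 animals. The L5 IT sum was 45.9 CPM in nuclei gated for L2/3 IT and 138 in those gated for L6 CT. L6 IT markers summed to 147 CPM against 160, but 134 CPM of this was Zfp804b (98.2 in other excitatory nuclei). The other 4 L6 IT markers were each lower and summed to 12.6 CPM against 61.9. L2/3 IT markers were mixed, as 3 of 8 were higher in L4/5 Rorb nuclei than in other excitatory nuclei. Cux2, a transcription factor of upper layers that also extends into layer 4, was at 151 CPM, between the 98.9 of other excitatory nuclei and the 656 of nuclei gated on it as L2/3 IT. Otof and Ccbe1, which mark layer 2/3 more narrowly, were at 4.36 and 16.4 CPM, against 17.0 and 76.1 in other excitatory nuclei.

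Of the markers listed for thalamic neurons, Rora, a nuclear receptor related to Rorb, was at 2913 CPM in L4/5 Rorb nuclei and 1294 in the other excitatory nuclei. Rora is also known from cortical layer 4. The remaining thalamic markers were scarce, though Slc17a6, a second vesicular glutamate transporter, was higher in 12 of 12 animals, at 21.3 CPM against 12.8. It had a UMI in 13.6% of L4/5 Rorb nuclei and 0.768% of oligodendrocyte nuclei. Tcf7l2, Prkcd and Lef1 were at no more than 3.43 CPM. Glial transcripts were low as well. Astrocyte markers summed to 18.9 CPM, and the oligodendrocyte markers to 58.0 CPM against 19122 in oligodendrocyte nuclei. The 5 vascular and meningeal markers summed to 2.78 CPM against 4.60 in other excitatory nuclei, and 1 of them, Slc6a13, was higher (0.426 against 0.383). Cldn5 had no UMI in any of the 1910 nuclei, but it was scarce in the other excitatory nuclei too, at 0.0449 CPM.

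The genes with the largest ratio of L4/5 Rorb to other excitatory nuclei describe this cell type further. Among 2878 genes of at least 50 CPM, 53 were at least 2-fold higher, and the gate genes were left out of this count. Gm20752, a long intergenic noncoding RNA on chromosome 3 (159076364 to 159308081, mm10), had the largest ratio, 9.07, at 223 CPM against 24.6. Pld5, a member of the phospholipase D family thought to lack catalytic activity, was second with a ratio of 4.80 (217 CPM against 45.1). The antisense RNAs Gm13629 and Gm13601 followed with 4.69 and 4.03. Their counts may be shared with the genes on the opposite strand if strand was not used in counting, which the sources used here do not state.

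Protein-coding genes that followed were the homeobox gene Barx2 (ratio 3.72), the receptor phosphatase Ptprm (3.68), Kcnh5 (3.62), the syntrophin Sntg2 (3.30), the calcineurin regulator Rcan2 (3.29), Thsd7a (3.23), Cpne9 (3.21), Tmem145 (3.07), the Sonic hedgehog co-receptor Boc (3.04) and Prr16 (3.02). Each of these leading genes was higher in L4/5 Rorb nuclei in 12 of 12 animals. Barx2 and Cpne9 were also well above the other excitatory nuclei in nuclei gated for L2/3 IT, at 46.4 and 84.0 CPM, whereas Ptprm and Gm20752 stood there at only 16.5 and 19.9 CPM. At the other end, among 3012 genes of at least 50 CPM in the other excitatory nuclei, Zfpm2, Tle4, Bcl11b, Dscaml1 and Col23a1 had the smallest ratios, from 0.110 to 0.162. Zfpm2, Tle4 and Bcl11b encode transcriptional regulators of deep layer neurons, and all 5 were lower in L4/5 Rorb nuclei in 12 of 12 animals. The gate bears on this, since the other excitatory nuclei hold those that the Foxp2 limit left out. Zfpm2, Tle4 and Bcl11b were at 2128, 606 and 148 CPM in nuclei gated for L6 CT.

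**Figure D1:**
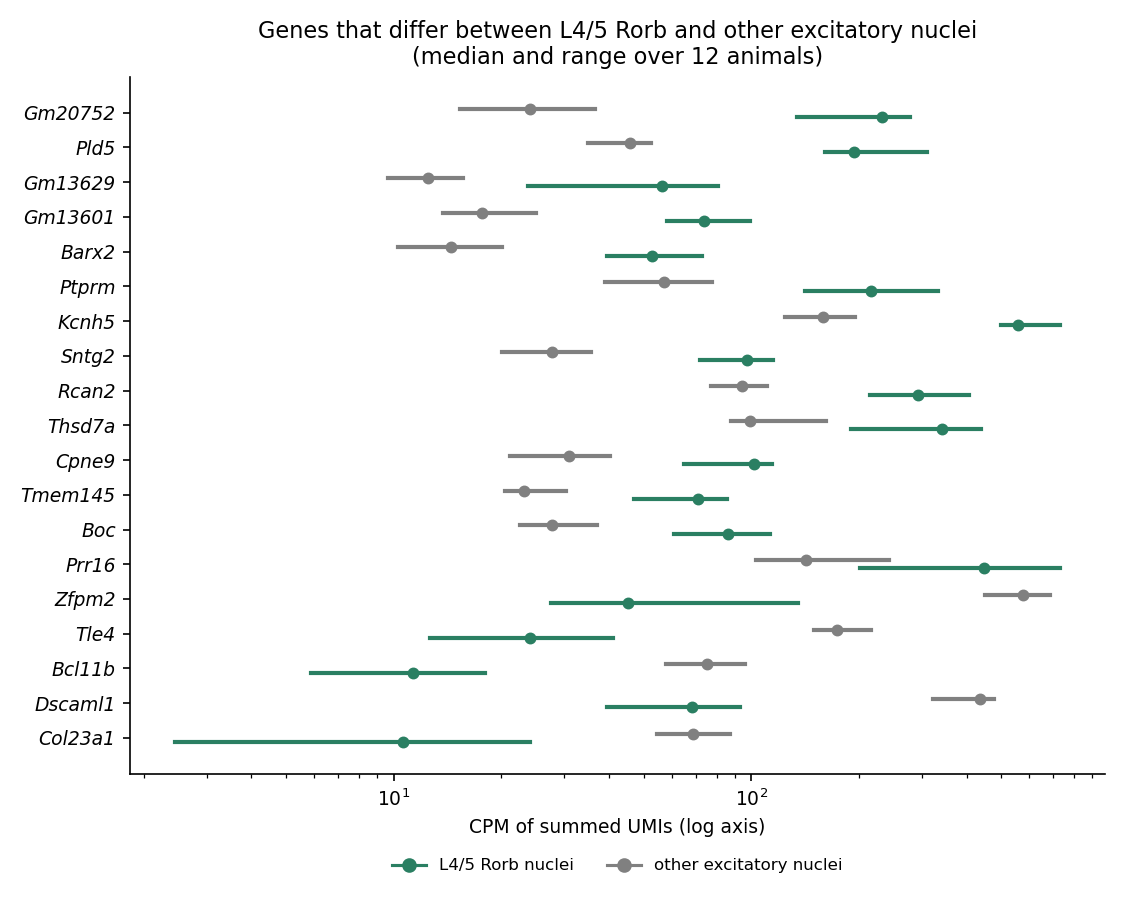
CPM of summed UMIs (log axis) of the named genes with the largest ratios and the 5 with the smallest ratio of L4/5 Rorb to other excitatory nuclei; points are medians and lines the range over 12 animals. The ranges of the 2 kinds of nuclei are apart for Gm20752 and Pld5 and overlap for Prr16, which ranged from 201 to 733 CPM in L4/5 Rorb nuclei and from 103 to 243 in the others.

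The number of Rorb UMIs varied among the nuclei, with a median of 6 and a maximum of 39.78. (A UMI that fitted several genes was divided among them, hence the fraction.) Of the 1910 nuclei, 743 held 4 to 5 Rorb UMIs, 751 held 6 to 9 and 416 held 10 or more. Depth rose along with Rorb, from a median of 6704 UMIs to 7249 and 8791. Values below are CPM, which divides by depth, pooled over the animals and given without a test because Rorb defined the classes.

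Kcnh5 rose over these classes from 512 to 594 and 675 CPM, and was higher in the top than in the bottom class in 10 of 12 animals. Cux1, an upper layer transcription factor, went from 260 to 329 and 350 CPM, likewise higher in 10 of 12 animals. Pld5 went from 193 to 212 and 257 CPM. Cpne9 stayed close, at 91.4, 104 and 105 CPM. Deptor and Bcl11b, which mark layer 5, went the other way. Bcl11b was at 16.9, 8.04 and 8.80 CPM, higher in the bottom class in 8 of 12 animals, and Deptor at 40.7, 37.4 and 24.3 CPM, higher there in 10. Il1rapl2, a synaptic adhesion receptor among the L4/5 markers, also fell, from 669 to 565 and 456 CPM, with the bottom class higher in 8 of 12 animals. Just outside the threshold, 456 nuclei met the other criteria with 3 Rorb UMIs (median 6228.5 UMIs), against 427 just inside with 4 (median 6439 UMIs). Kcnh5 was at 458 CPM just outside and 518 just inside, Cpne9 at 90.7 and 95.1, Pld5 at 185 and 196, and Bcl11b at 26.6 and 15.4. Il1rapl2 went the other way from these L4/5 genes, with 747 CPM just outside and 599 just inside, and the L4/5 markers other than Rorb summed to 1332 and 1265 CPM.

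**Figure D2:**
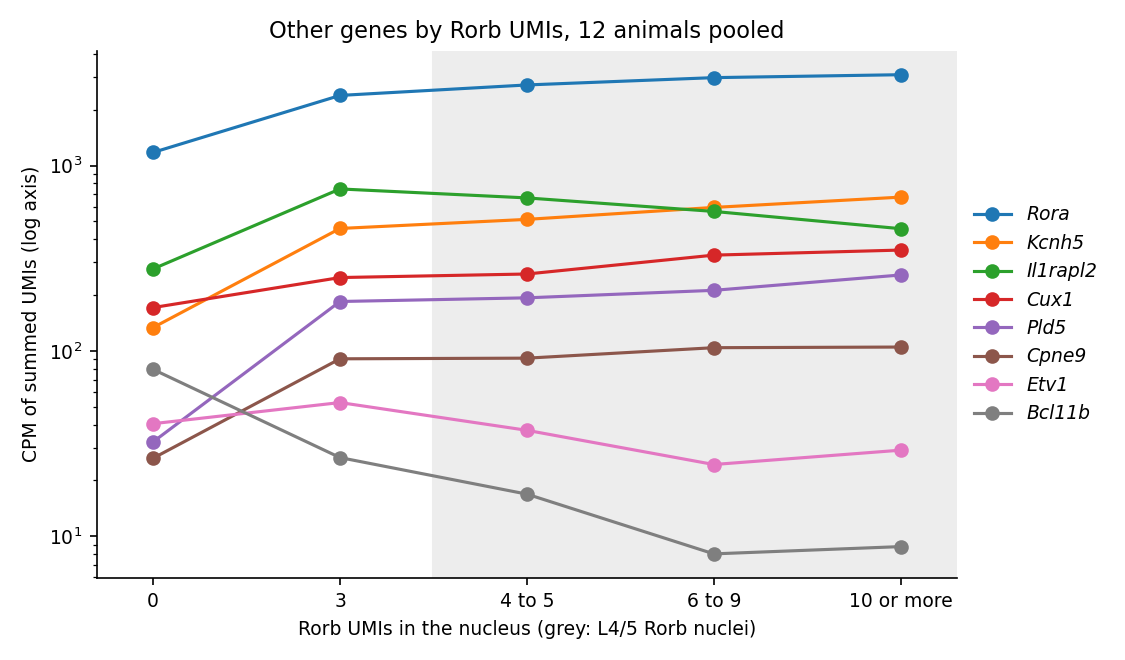
CPM of 8 genes (log axis) in excitatory nuclei grouped by their Rorb UMIs, pooled over 12 animals; the 3 classes on grey are L4/5 Rorb nuclei. Kcnh5 rises from 134 CPM in nuclei without Rorb to 675 in those with 10 or more UMIs, and Bcl11b falls from 79.5 to 8.80. Nuclei without Rorb had no limit on Foxp2 (206 CPM) and Tshz2 (264 CPM), unlike the other classes. The step from them to the other classes therefore mixes Rorb with these limits.

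Whether the share of L4/5 Rorb nuclei differed between genotypes was tested over animals. Among excitatory nuclei it was 8.57% ± 1.35 in WT and 7.81% ± 1.41 in Het (SD, n = 6 each). The animals ranged from 7.13% to 10.7% in WT and from 5.86% to 9.24% in Het, so the genotypes overlapped over most of their range. The difference of -0.76 percentage points was smaller than the spread between animals (exact permutation test, two-sided, p = 0.353). Males gave a difference of -1.33 points and females one of -0.18 (3 animals against 3, exact permutation p = 0.4 and 0.8, where the smallest possible p is 0.1). The median number of UMIs per L4/5 Rorb nucleus was 7332 ± 346 in WT and 7400 ± 302 in Het (SD, n = 6 each, exact permutation p = 0.723), and the mean number of Rorb UMIs was 7.51 in both. These nuclei had already passed the gate, so neither value shows whether depth moved the share. The median over all excitatory nuclei was 6225 ± 430 UMIs in WT and 6075 ± 599 in Het (SD, n = 6 each, exact permutation p = 0.649). Het male 2 had the lowest median there, 4976 UMIs, and the lowest share, 5.86%. The share was also taken after each nucleus was drawn at random down to 3000 UMIs, with shallower nuclei left out. It was then 3.95% ± 1.05 in WT and 3.36% ± 0.68 in Het (SD, n = 6 each, exact permutation p = 0.290). Het male 2 was at 2.97%, and the lowest Het animal at 2.72%.

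**Figure D3:**
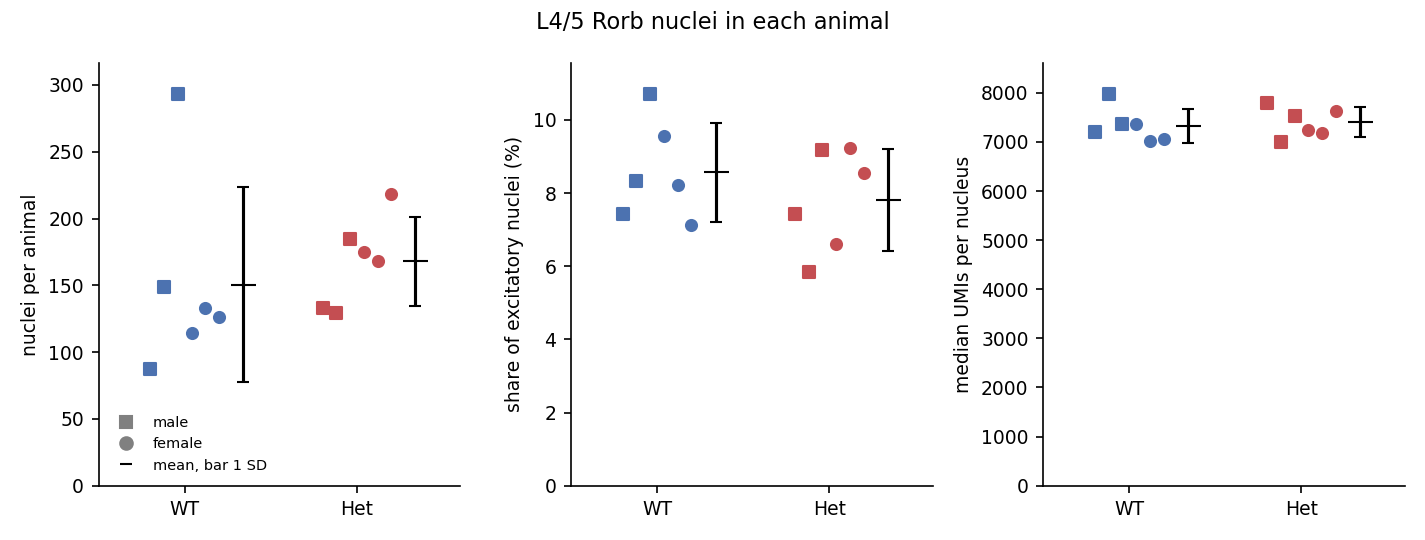
Number of L4/5 Rorb nuclei, their share of excitatory nuclei (%) and their median UMIs in each of 12 animals; squares are males, circles females, and bars show mean and SD. The share spans 7.13% to 10.7% in WT and 5.86% to 9.24% in Het, and WT male 3 gave the most nuclei, 293.

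Gene expression in L4/5 Rorb nuclei was then compared between genotypes on UMIs summed per animal. With edgeR's quasi-likelihood test, 3 of 7822 genes passed an adjusted p of 0.05 with an absolute log2 fold change over 0.2, or 0.0384% of those tested. Ntrk2 was higher in Het (1 gene, 0.0128%), and Kcnt2 and Pld5 were lower (2 genes, 0.0256%). At an unadjusted p under 0.05 there were 615 genes (7.86%), 350 higher and 265 lower. The median log2 fold change of all genes was -0.01. In sums over nuclei, a lower level in each nucleus and fewer nuclei with the transcript cannot be told apart.

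Ntrk2 (chromosome 13, 58806569 to 59133970, mm10, plus strand) encodes TrkB, the receptor through which the neurotrophin BDNF acts on growth and synapses of cortical neurons. It was at 859 to 1106 normalised CPM in WT (median 1000) and 1216 to 1554 in Het (median 1377). Each of the 6 Het animals lay above each of the 6 WT animals. Non-overlapping groups were found for 41 of the 7822 genes (0.524%). The log2 fold change was 0.49 (SE 0.08, adjusted p = 0.00805), with 0.49 in males alone and 0.50 in females alone. Between 689 and 2085 Ntrk2 UMIs stood behind each animal's value. The call was lost without Het female 1, where the log2 fold change was 0.45 and the adjusted p 0.0627, and among the 341 nuclei within the study's limits (0.54, adjusted p = 0.567).

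Because Ntrk2 is also abundant in astrocytes, astrocyte transcripts were measured beside it. The 6 astrocyte markers (Aqp4, Gja1, Slc1a3, Gli3, Slc39a12 and Ranbp3l) summed to 8.24 to 24.7 CPM in WT and 14.8 to 43.4 CPM in Het, and to 3075.5 CPM in 121 astrocyte nuclei. None of the 6 had enough counts to be tested. In those astrocyte nuclei, with a median of 2640 UMIs, Ntrk2 itself stood at 968 CPM. That is within the range of the WT animals in L4/5 Rorb nuclei and below that of the Het animals. In the 1721 nuclei without a UMI of any of these markers, the log2 fold change of Ntrk2 was 0.50 (edgeR, adjusted p = 0.00318). This subset was chosen after the data had been seen, and the part of astrocyte RNA in the Ntrk2 difference was not tested.

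Kcnt2 (chromosome 1, 140246158 to 140612067, mm10, plus strand) encodes Slick, a sodium-activated potassium channel. It was at 813 to 990 normalised CPM in WT (median 946) and 607 to 794 in Het (median 716), again without overlap. The log2 fold change was -0.39 (SE 0.07, adjusted p = 0.0239), with -0.36 in males and -0.42 in females. The adjusted p rose to between 0.0559 and 0.123 when WT male 3, WT female 2, WT female 3, Het male 2, Het male 3, Het female 1 or Het female 2 was left out, with log2 fold changes between -0.35 and -0.40 in those cases. The call was also lost among nuclei without an astrocyte UMI (-0.39, adjusted p = 0.0525) and among those within the study's limits (-0.30, adjusted p = 0.639).

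Pld5 (chromosome 1, 175962306 to 176275312, mm10, minus strand), the second most enriched gene of this cell type, was at 193 to 314 normalised CPM in WT (median 265) and 159 to 193 in Het (median 183). Only WT male 1 fell among the Het animals, and the other 5 WT animals lay at 234 or more. The log2 fold change was -0.55 (SE 0.10, adjusted p = 0.0227), with -0.34 in males and -0.75 in females. The call was lost without WT female 2, Het female 1, Het female 2 or Het female 3 (adjusted p from 0.0767 to 0.114). It was also lost when the Rorb threshold was set to 3 UMIs (log2 fold change -0.50, adjusted p = 0.158) or 6 UMIs (-0.53, adjusted p = 0.417), among nuclei without an astrocyte UMI (-0.48, adjusted p = 0.269) and among those within the study's limits (-0.82, adjusted p = 0.567). Kcnh5 and Cpne9, also among the leading genes, had log2 fold changes of -0.11 (SE 0.08, adjusted p = 0.82) and 0.07 (SE 0.11, adjusted p = 0.953).

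**Figure D4:**
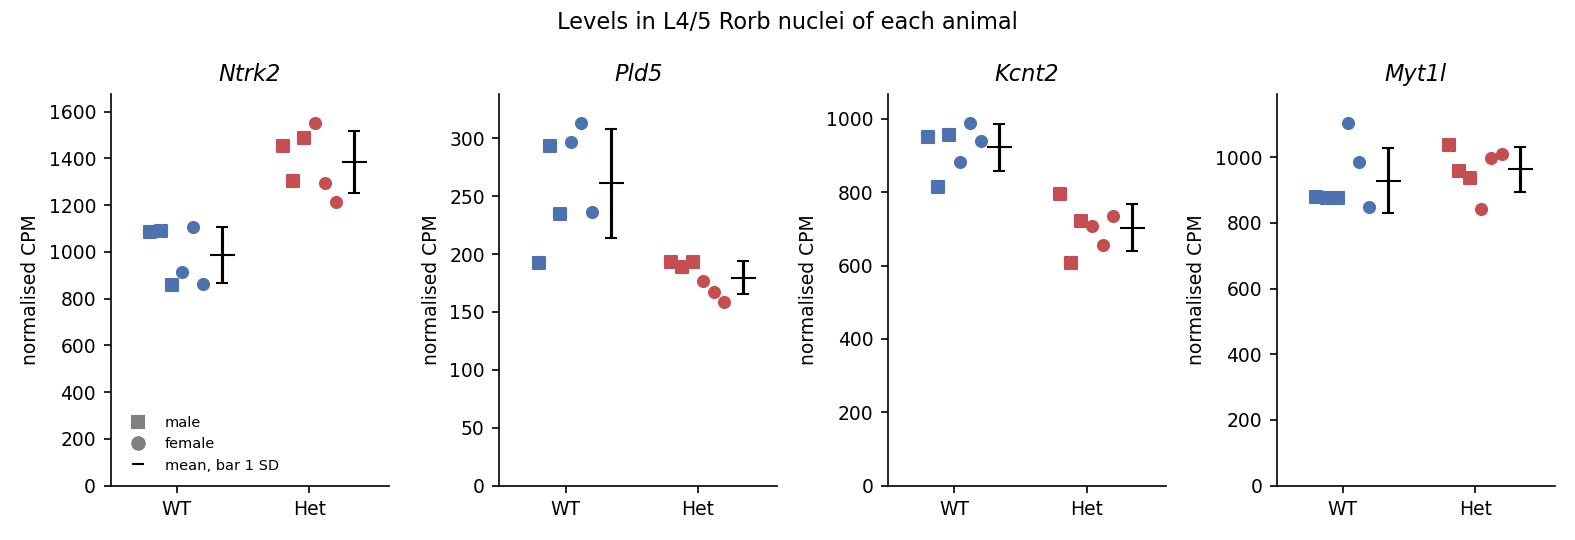
Normalised CPM of Ntrk2, Pld5, Kcnt2 and Myt1l in L4/5 Rorb nuclei of each of 12 animals; squares are males, circles females, and bars show mean and SD over 6 animals. Het animals lie above all WT animals for Ntrk2 (1216 to 1554 against 859 to 1106) and below all of them for Kcnt2, whereas Myt1l overlaps.

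The promoters of the 3 genes in RefSeq (GRCm38.p6, 250 bases before to 50 after the annotated start) were searched for AAGTT, the core of the motif of the MYT1 family, on both strands (AAGTT or AACTT). The start in this table is the one given above for Ntrk2, but lies 440 bases upstream of it for Kcnt2 and 61370 bases inside the gene for Pld5, so other starts of these genes were not searched. None of the 3 windows held these letters, and 39.3% of 32851 promoters of the same length did. This says nothing of MYT1L binding elsewhere at these genes.

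The genes with the next smallest p did not pass the adjusted threshold, and their values are given as measured. Ankrd33b, an ankyrin repeat protein, was at 110 to 138 normalised CPM in WT and 152 to 248 in Het, with no overlap (log2 fold change 0.62, SE 0.12, adjusted p = 0.0544). Afap1l1, an actin-associated protein, was at 16.3 to 25.1 and 24.7 to 35.3 (0.77, adjusted p = 0.0527). Sparcl1, a secreted protein that promotes synapse formation and is made mainly by astrocytes, was at 18.8 to 36.3 and 32.8 to 53.7 (0.76, SE 0.17, adjusted p = 0.0916), beside the astrocyte marker levels given above, whose part in it was not tested. Its level was 780 CPM in astrocyte nuclei. The other genes with positive values were the kinase Nuak1 (0.51), the histamine receptor Hrh2 (0.87), the nonmuscle myosin Myh9 (0.59), Anks1 (0.57), the inositol transporter Slc2a13 (0.36) and the kinase Lrrk2 (0.62), with adjusted p from 0.0916 to 0.12.

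On the lower side were Sphkap, an anchoring protein of protein kinase A (-0.44, adjusted p = 0.0953), the lipoprotein receptor family member Lrp1b (-0.25, adjusted p = 0.174), Tmem196 (-1.11, adjusted p = 0.182) and the fucosyltransferase Fut9 (-0.31, adjusted p = 0.183). Kcnip4, a subunit of A-type potassium channels, had -0.27 (adjusted p = 0.205), and 9630028H03Rik and Stat5b had -0.51 and -0.78 (both adjusted p = 0.219). Lrp1b was at 3143 to 3814 normalised CPM in WT and 2657 to 3122 in Het, without overlap. DESeq2 called 23 genes (1.51% of the 1528 with an adjusted p), 15 higher and 8 lower. They included Ntrk2, Pld5 and Kcnt2, and also Ankrd33b, Lrrk2, Nuak1, Slc2a13, Sphkap, Lrp1b, Fut9, Kcnip4 and Adgrl3.

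Groups of genes with roles in these neurons are described by counts, and beyond Kcnt2 none of their members passed the edgeR test. Over all genes tested, 0.0384% were called, 47.2% had positive values and 7.86% had an unadjusted p under 0.05. Of 46 potassium channel genes tested, 1 was called and 27 (58.7%) had positive values, with a median log2 fold change of 0.03. At an unadjusted p under 0.05 were 7 of them (15.2%), 2 higher and 5 lower. Of 26 sodium, calcium and HCN channel genes, 11 were positive (median -0.02), and Cacnb1, a calcium channel subunit, had the smallest p (0.55, SE 0.16, adjusted p = 0.247). The 12 genes of calcium pumps and stores had a median of -0.01. Among transmitter receptors, the 15 ionotropic glutamate receptor genes had a median of -0.01, the 15 GABA and glycine receptor genes one of -0.04 and the 7 metabotropic glutamate receptor genes one of -0.12. Of those 7, only 1 had a positive value. Gabrg3, a GABA-A receptor subunit, had -0.35 (SE 0.11, adjusted p = 0.336), and the kainate receptor gene Grik2 had -0.13 (adjusted p = 0.688).

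Of 43 genes of presynaptic release machinery, 29 (67.4%) had positive values, with a median of 0.07, and 9 (20.9%) had an unadjusted p under 0.05, 7 higher and 2 lower. This share was not tested against that of all genes, and it is not particular to this list. It was 21.1% for transcription factors of layer identity, 20% for GABA and glycine receptors and 18.2% for cadherins and contactins. Genes of immature neurons had 23.1% and immediate early genes 25%. Synaptic organizers had 10.9%, and calcium pumps and stores and ionotropic glutamate receptors 0%. Bassoon (Bsn), a scaffold of the release site, had 0.27 (SE 0.08, adjusted p = 0.28), and its groups did not overlap. Synaptic organizers had 20 positive values of 46 (median -0.02), led by the latrophilin Adgrl3 (-0.23, SE 0.06, adjusted p = 0.219), which DESeq2 called. Cadherins and contactins had 11 of 33 (median -0.06), led by Cdh22 (0.47, adjusted p = 0.345). Axon guidance genes had 20 of 39 (median 0.03). Of the 7 axon guidance genes (17.9%) at an unadjusted p under 0.05, 6 were lower, a split not tested against that of all genes, and Sema3e had -0.69 (SE 0.19, adjusted p = 0.219).

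The immediate early genes, which neurons switch on when they are active, did not pass the test. All 8 that could be tested were positive, against 47.2% of all genes tested. Their median log2 fold change was 0.45, against -0.01 over all genes. They were Nr4a1 (0.43, SE 0.17), Arc (0.68, SE 0.28), Egr3 (0.79, SE 0.38), Bdnf (0.69, SE 0.35), Homer1 (0.47, SE 0.26), Nptx2 (0.29, SE 0.33), Nr4a3 (0.20, SE 0.36) and Egr1 (0.16, SE 0.20), with adjusted p from 0.48 to 0.962. Homer1, a postsynaptic scaffold, was at 325 to 859 normalised CPM in WT (median 498) and 489 to 955 in Het (median 720). Bdnf, which encodes the ligand of TrkB, was at 9.56 to 40.9 in WT (median 25.7) and 15.9 to 67.0 in Het (median 42.5). The genotypes overlapped for all 8 genes. Their values come from the same 12 animals and are not independent of each other. WT female 1 was the lowest WT animal and Het male 1 the lowest Het animal for Bdnf, Egr1, Egr3 and Homer1 alike. With 1 animal left out, Nr4a3 ranged from -0.13 (without WT male 3) to 0.41, so not all 8 values stayed positive.

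Transcription factors of layer identity had 14 positive values of 19 (median 0.05). Nr2f1, which patterns sensory areas of the cortex, had -0.53 (SE 0.15, adjusted p = 0.247), Cux2 0.42 (SE 0.17, adjusted p = 0.521) and Rora 0.22 (SE 0.07, adjusted p = 0.324). Genes of immature neurons had 6 of 13 (median -0.06), led by Nfix (0.27, adjusted p = 0.526). The MYT1L family, its corepressors and TGF-beta inhibitors had 12 of 17 (median 0.05), led by Smad3 (0.46, SE 0.15, adjusted p = 0.309). The 22 genes that the study named for P21 were chosen on these animals and are not independent evidence. None passed here, and 10 were positive. The list was not split by the direction the study gave, so this count is no summary of it. Among them, Etv5 (0.78, SE 0.23, adjusted p = 0.305), Pak1 (0.34, adjusted p = 0.343), Slit2 (-0.54, adjusted p = 0.527) and the ephrin receptor Epha3 (-0.32, adjusted p = 0.521) had the largest differences relative to their error beside Nfix.

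The values were set beside those of 2 other excitatory cell types gated from the same animals in the same way, 2318 L6 CT nuclei (at least 4 UMIs of Foxp2) and 838 L2/3 IT nuclei (at least 4 of Cux2). The gates share animals but no nuclei. Ntrk2 had a log2 fold change of 0.44 in L6 CT nuclei (SE 0.09, adjusted p = 0.00725) and 0.37 in L2/3 IT nuclei (SE 0.09, adjusted p = 0.298). Kcnt2 had -0.58 (SE 0.08, adjusted p = 0.000124) and -0.36 (SE 0.11, adjusted p = 0.597). For neither gene was a difference between cell types detectable, with adjusted p of the interaction from 0.785 to 0.993. Pld5 was scarce in L6 CT nuclei, at 9.20 CPM, and its values of -0.65 (SE 0.29) there and 0.16 (SE 0.36) in L2/3 IT nuclei had wide errors. Of the immediate early genes, Bdnf, Egr1, Egr3 and Homer1 had 0.44, 0.13, 0.72 and 0.51 in L6 CT nuclei. In L2/3 IT nuclei they had 0.26, 0.23, 0.55 and 0.35. For none of these was a difference from L4/5 Rorb nuclei detectable (edgeR interaction test, adjusted p of at least 0.970).

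No gene differed in its response between L4/5 Rorb and L6 CT nuclei past the threshold (0 of 8935, edgeR interaction test, with 504 at an unadjusted p under 0.05), although without a filter on low counts there were 7. The smallest p belonged to Syndig1 (difference 0.71, SE 0.14, adjusted p = 0.106), which regulates AMPA receptor synapses. Anks1 (0.68), Cadps2 (0.39) and Ell2 (0.47) each had an adjusted p of 0.292.

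Against L2/3 IT nuclei, 1 of 7771 genes passed (0.0129%). Lrrc4c, which encodes the synaptic adhesion protein NGL-1 and lies on chromosome 2 (96318169 to 97631666, mm10), had a log2 fold change of -0.13 (SE 0.07) in L4/5 Rorb nuclei and 0.40 (SE 0.09) in L2/3 IT nuclei. The difference was -0.54 (SE 0.08, edgeR interaction test, adjusted p = 0.000208). In L4/5 Rorb nuclei Lrrc4c was at 3534 to 4399 normalised CPM in WT (median 4158) and 3402 to 3890 in Het (median 3762), and neither cell type passed the test on its own. The L2/3 IT values rest on few nuclei, 28 to 75 per WT animal and 74 to 124 per Het animal. In all, this gate took 281 of 10271 excitatory nuclei in WT and 557 of 13025 in Het. Its gene Cux2 had a log2 fold change of 0.42 in L4/5 Rorb nuclei (adjusted p = 0.521). The gate may therefore choose different nuclei in the 2 genotypes. That and a changed level of Lrrc4c cannot be told apart here. 9630028H03Rik (-1.26, adjusted p = 0.246), Dscam (0.37, adjusted p = 0.286), Lrrk2 (0.59, adjusted p = 0.444) and Copb1 (0.89, adjusted p = 0.743) were next.

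**Figure D5:**
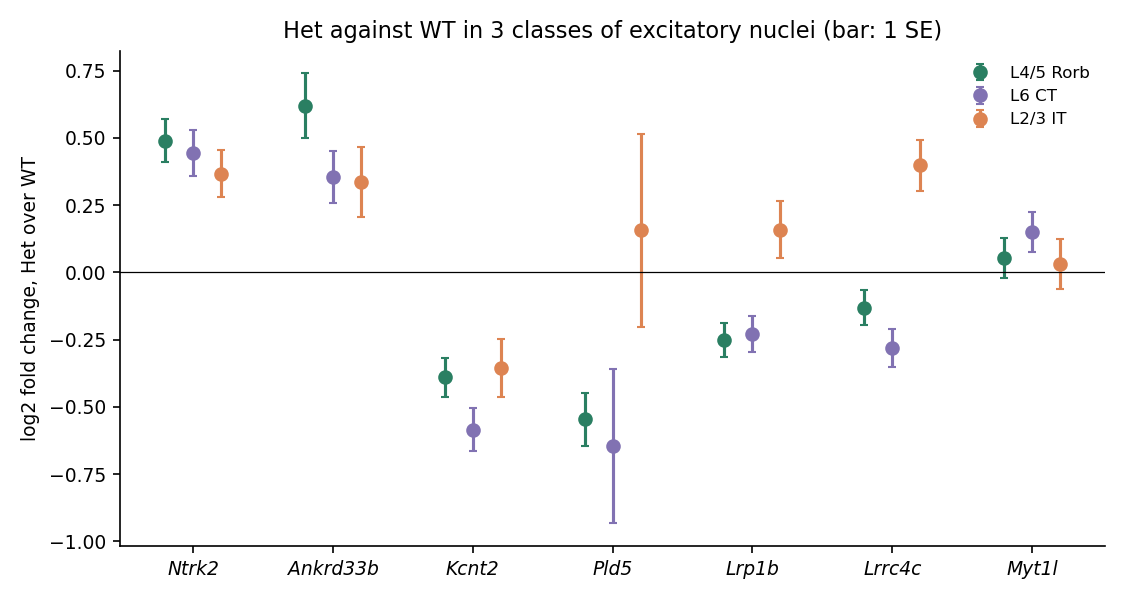
Log2 fold change of Het over WT for 7 genes in L4/5 Rorb, L6 CT and L2/3 IT nuclei; points are estimates and bars 1 SE. Ntrk2 lies above 0 and Kcnt2 below 0 in each cell type, and Lrrc4c is at -0.13, -0.28 and 0.40.

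The sexes were compared within L4/5 Rorb nuclei. Col26a1, a collagen gene, was the only one of 7822 genes (0.0128%) whose Het against WT difference itself differed between the sexes, by 2.06 on the log2 scale for females minus males (SE 0.31, edgeR interaction test, adjusted p = 0.00358). WT males were at 43.7 to 72.6 normalised CPM and Het males at 23.6 to 39.2, whereas WT females were at 17.9 to 29.8 and Het females at 57.2 to 67.9. The ranges did not overlap in either sex. Col26a1 was singled out by the interaction test on these same values, so this separation adds no support to it. How many other genes separate in this way within each sex was not counted. Pdzrn4 (-0.98, adjusted p = 0.0607), Usp29 (-0.82), Grb14 (-1.40) and Plcl1 (-0.70, each adjusted p = 0.0965) did not pass. Fitted by sex with edgeR, females gave 39 calls and males none, with 477 genes at an unadjusted p under 0.05 in males. That contrast of counts is not a test of a difference between the sexes, for which the interaction stands.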

How the data were processed

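Cortical nuclei of 12 mice at postnatal day 21 were profiled by combinatorial-barcode single-nucleus RNA sequencing. The authors mapped reads to mm10 and made the matrices with ScaleRna. The deposited values are expected counts, in which a UMI that fits several genes is divided among them, and no normalization had been applied. Expected counts were summed per animal and rounded. The viral reporter TDTOMATO entered neither the library sizes nor the tests. Whether doublets had been removed before deposit is not known, and no doublet caller was used for the values reported. Without the 5% of barcodes with the highest Scrublet score in each animal, 58 of the 1910 nuclei were lost.

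Barcodes with at most 12000 UMIs and at most 1% mitochondrial UMIs were kept. Levels are CPM of summed UMIs, and those called normalised CPM are scaled by TMM factors. They are not divided by gene length. Het and WT were compared with edgeR 4.0.16 (TMM, filterByExpr with a minimum count of 10, robust quasi-likelihood fits, genotype as the only term), with Benjamini-Hochberg adjustment over all genes tested. Genes were called at an adjusted p below 0.05 if their log2 fold change also exceeded 0.2 in size. Differences between cell types used an interaction with the animal as a block, and those between sexes an interaction term. Rorb, Slc17a7, Gad1, Gad2, Foxp2 and Tshz2 chose the nuclei and were not tested, nor was any gene tested between the chosen and the other nuclei. Single values were compared by exact two-sided permutation over the 924 relabellings of the animals. DESeq2 1.42.0 was an alternative. The authors used DESeq2 1.38.3 and Seurat 4.3.0, per the submitters' processing notes. The fits were tested on simulated data before use. Software was R 4.3.3 and Python 3.11.15 with scanpy 1.11.5, pandas 2.3.3, scipy 1.17.1 and numpy 2.4.6.

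Members and gene lists were chosen with earlier results of these data known. Named genes were the calls, the 10 genes with the smallest p in each direction, the gene with the smallest p in each functional list and any called list member, the genes the study named for P21, Myt1l, the markers, the 15 largest and 5 smallest ratios to other excitatory nuclei at 50 CPM or more, and the 5 genes with the smallest p in each interaction. The other immediate early genes and the genes compared across classes of Rorb UMIs were added after their values were seen. Positions are those of GENCODE M21, matched by identifier for 54587 of 55336 features. Some genes that this rule names are not reported here.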

Additional observations from a re-analysis of the deposited data

Results flagged for a closer look

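Of 48 groups of 6 animals examined, 2 held an animal far from the others by Dixon's criterion, which chance alone passes in about 1 of 20 groups. The median UMIs per L4/5 Rorb nucleus of WT male 2 were 7969, while the other WT animals lay between 7024 and 7373. Afap1l1 in Het male 2 was at 24.7 normalised CPM, while the other Het animals lay between 33.8 and 35.3.

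The Het against WT difference of Col26a1 differed between the sexes by 2.06 on the log2 scale (edgeR interaction test, adjusted p = 0.00358). That of Lrrc4c differed between L4/5 Rorb and L2/3 IT nuclei by -0.54 (edgeR interaction test, adjusted p = 0.000208), with the limit of the L2/3 IT gate given above. TDTOMATO, the transcript of the injected reporter, was counted in L4/5 Rorb nuclei of every animal, at 191 to 439 CPM. WT animals averaged 301 ± 95.0 CPM and Het animals 318 ± 66.2 (SD, n = 6 each, exact permutation p = 0.745), and all animals had been injected.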

How the results depend on the processing

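The share of L4/5 Rorb nuclei kept its direction and stayed without significance under all 19 alternatives, and leaving out 1 animal gave -1.04 to -0.33 points. The difference in median UMIs ranged from -12.0 to 195 when 1 animal was left out. The 3 genes called became 23 with DESeq2, 5 with DESeq2's size factors in edgeR, 47 without a filter on low counts, 0 within the study's limits on barcodes (100 genes at an unadjusted p under 0.05, of 1594 tested) and 0 to 7 when 1 animal was left out, with 0 without Het female 1, 1 without WT female 2 or Het female 2, and 7 without Het male 2. Replicate numbers do not pair the animals: deviations of same-numbered animals correlated from -0.23 to 0.15, and no animal correlated best with its own number. With a replicate block, 0 genes were called by edgeR (585 at an unadjusted p under 0.05), and Ntrk2, Kcnt2 and Pld5 had an adjusted p of 0.0661, 0.0662 and 0.0662. Genes that differed from L6 CT nuclei numbered 7 without a filter and 0 to 3 when 1 animal was left out, those that differed from L2/3 IT nuclei 5 and 1 to 3, and those that differed between the sexes 28 without a filter and 2 with DESeq2.

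Log2 fold changes near 0 changed sign. Within the study's limits, Cdh6 was at -0.30, Cntn5 at -0.018, Epha7 at 0.085, Gria4 at -0.23, Myt1l at -0.088, Ptn at -0.31 and Robo2 at 0.080. With Rorb at 3 UMIs or more, Bcl2 was at -0.050, Cdh6 at -0.052, Rims1 at -0.011 and Smurf1 at 0.0043, and with 6 or more, Rims1 at -0.0027, Nr4a3 at -0.015 and Sema3a at 0.016. With the replicate block, Bcl2 was at -0.0033 and Sema3a at 0.035. Without the highest Scrublet scores, Bcl2 was at -0.021 and Gria4 at -0.0058. With sex as a term, Gria4 was at -0.0021 and Sema3a at 0.018, and with DESeq2 Sema3a was at 0.0028. Without nuclei that held an astrocyte marker UMI, Cntn5 was at -0.012 and Smurf1 at 0.0073. Leaving out 1 animal gave -0.065 to 0.058 for Bcl2, -0.045 to 0.11 for Cdh6, -0.079 to 0.13 for Cntn5, -0.018 to 0.13 for Cpne9, -0.13 to 0.41 for Nr4a3, -0.090 to 0.0037 for Epha5, -0.17 to 0.026 for Epha6, -0.057 to 0.058 for Gria4, -0.034 to 0.059 for Rims1, -0.15 to 0.078 for Sema3a and -0.096 to 0.059 for Smurf1. The causes were not tested.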

Other observations

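A further 2423 kept nuclei held at least 4 Rorb UMIs but less than 1 UMI of Slc17a7 and none of Gad1 or Gad2. They were among 4750 kept nuclei with that many Rorb UMIs and were left out of the comparisons above. Unlike L4/5 Rorb nuclei they had no limit on Foxp2 and Tshz2, which were at 31.2 and 85.3 CPM, against 9.58 and 8.82. Their median was 6132 UMIs. The L4/5 IT markers other than Rorb summed to 1205 CPM in them and 1312 in L4/5 Rorb nuclei, with Kcnh5 at 629 CPM, Cpne9 at 96.3 and Pld5 at 240. Astrocyte markers summed to 83.9 CPM, against 18.9 in L4/5 Rorb nuclei, and 11.1% of them held a UMI of such a marker, against 9.90%.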
